A study of Mus musculus with 24 samples.

Results

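Integrins are receptors that span the cell membrane and join the matrix outside a cell to the actin cytoskeleton inside it. Each is a pair of an alpha and a beta subunit, and the pairing sets which matrix protein is bound. In the vessel wall the pair alpha5-beta1 is the classical receptor for fibronectin, the product of Fn1, and both are known for their part in assembling fibronectin fibrils around smooth muscle cells. The 10 genes described here are Itga5, Itgb1, Itgav, Itgb3, Itgb5, Itga8, Itga9, Itga1, Itga7 and Fn1, taken by symbol from the 25941 genes of the deposited count table. Each symbol matched 1 row, and all 10 were among the 14451 genes that passed the filter on low counts. Itga5 was chosen by its own measured values, its higher counts with celecoxib than in controls, so its values with celecoxib are given below as a description with no test, and the other 9 genes were added as vascular integrins and their ligand.

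The 24 polyA RNA-seq libraries were made from thoracic aortas. The mice were C57BL/6 males, wild type in genotype and 10 to 12 weeks old. In 8 libraries the mice had eaten chow with celecoxib at 100 mg/kg/day, in 8 chow with rofecoxib at 50 mg/kg/day, and in 8 the same chow with no drug, each for 3 weeks, with collection at zeitgeber time 11 (hours from lights on). Both drugs inhibit the inducible cyclooxygenase selectively. By the design text the replicates are biological, although the labels do not link libraries to animals. Sample titles carry a number that runs in its own block in each group, and a batch along these numbers and the drug cannot be told apart. Library totals ran from 21652432 to 21687906 counts. All 10 smooth muscle markers listed were among the genes tested, and their summed level was 43563 to 53268 CPM (read counts relative to a library size scaled by TMM factors) with celecoxib, 45131 to 54116 CPM with rofecoxib and 35713 to 48798 CPM in controls. Among other cell types, cardiac muscle markers summed to 536 CPM in rofecoxib 2 and at most 105 CPM outside the rofecoxib group, and white fat markers to 5931 CPM in control 6 and at most 3643 CPM outside the controls. Log2 fold changes, calls and the tested correlations of Itga5 were therefore also computed without these 2 libraries. A library of whole aorta mixes cell types, so fewer cells of a type and less RNA per cell cannot be told apart.

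The windows before the transcription start of Itga5, Itga8 and Itgav are shown because Itga5 is the gene picked and because Itga8 and Itgav varied together between libraries, as described below. They are the 250 bases before the start in the RefSeq-derived table for GRCm38.p6, which held 7 of the 10 genes, printed 5′ to 3′ on the gene's strand. Capitals mark matches to the motifs searched. On both strands these were the GC box GGGCGG, the cAMP response element TGACGTCA, the AP-1 site TGANTCA, the TEAD site CATTCC, the TATA box TATAAA, the glucocorticoid response element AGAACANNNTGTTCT and the CArG box.
Itga5, chr15:103366792-103367041, minus strand: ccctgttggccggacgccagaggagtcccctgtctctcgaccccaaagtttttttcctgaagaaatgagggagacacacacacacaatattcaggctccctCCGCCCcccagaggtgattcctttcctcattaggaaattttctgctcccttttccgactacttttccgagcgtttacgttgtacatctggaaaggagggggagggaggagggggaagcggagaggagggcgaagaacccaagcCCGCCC
Itga8, chr2:12301945-12302194, minus strand: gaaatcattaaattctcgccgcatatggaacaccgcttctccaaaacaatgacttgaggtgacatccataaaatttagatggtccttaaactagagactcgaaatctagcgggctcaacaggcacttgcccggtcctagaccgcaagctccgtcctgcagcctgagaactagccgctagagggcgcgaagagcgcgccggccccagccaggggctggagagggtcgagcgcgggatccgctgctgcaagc
Itgav, chr2:83724147-83724396, plus strand: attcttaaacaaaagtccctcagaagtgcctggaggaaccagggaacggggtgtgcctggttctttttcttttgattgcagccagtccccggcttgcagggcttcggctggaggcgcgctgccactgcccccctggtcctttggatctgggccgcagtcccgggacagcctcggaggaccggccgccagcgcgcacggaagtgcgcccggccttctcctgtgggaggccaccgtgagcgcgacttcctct
The Itga5 window held 2 GC boxes on the reverse strand, from 149 to 144 and from 6 to 1 bases before the start. A GC box occurred in 32.7% of the 32851 windows of this length in the table. No motif searched was in the Itga8 or Itgav window. A CArG box, a site of serum response factor, was in 482 of all windows, a TEAD site in 12.6%, an AP-1 site in 6.75%, a TATA box in 12.4%, a cAMP response element in 1.55% and the full glucocorticoid response element in 0.00913%, and none of these was in the 3 windows shown. The Itgb1 window held 1 GC box and 1 TEAD site, the Itgb5 window 3 GC boxes, and those of Itga9 and Itga1 held no match. The windows are on GRCm38 and the gene coordinates given below on mm9. Whether each window, that of Itga9 included, lies at the first start of the counted gene was not checked.

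Levels are compared between genes per length only, as CPM per kb of merged exons. In control aortas the beta1 subunit gene Itgb1, the common partner of many alpha subunits, was at 479 ± 48.2 CPM per kb (SD, n = 8 in each value of this paragraph). Fn1 followed at 413 ± 98.3 and Itga8, the alpha partner of beta1 that binds nephronectin, at 401 ± 70.6 CPM per kb. These 3 values lay within their spread of each other, and with the longest transcript as the length Fn1 came first at 581 CPM per kb. Itgb5, a beta partner of alphaV, was at 215 ± 16.9 and Itga5 at 138 ± 15.4 CPM per kb. Itga9, which with beta1 binds tenascin-C, was at 89.6 ± 15.9 and Itga7, the laminin receptor of muscle, at 42.9 ± 3.81 CPM per kb. Over the longest transcript those 2 genes stood closer together, at 98.2 and 86.3 CPM per kb. Itgb3, the beta3 subunit of platelets and vessel wall, was at 24.9 ± 1.79 CPM per kb, and Itgav, the alpha subunit that beta3 and beta5 share, at 12.3 ± 2.27 CPM per kb. Itga1, a collagen receptor subunit, was lowest at 3.64 ± 0.254 CPM per kb, or 6.17 over the longest transcript.

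**Figure D1:**
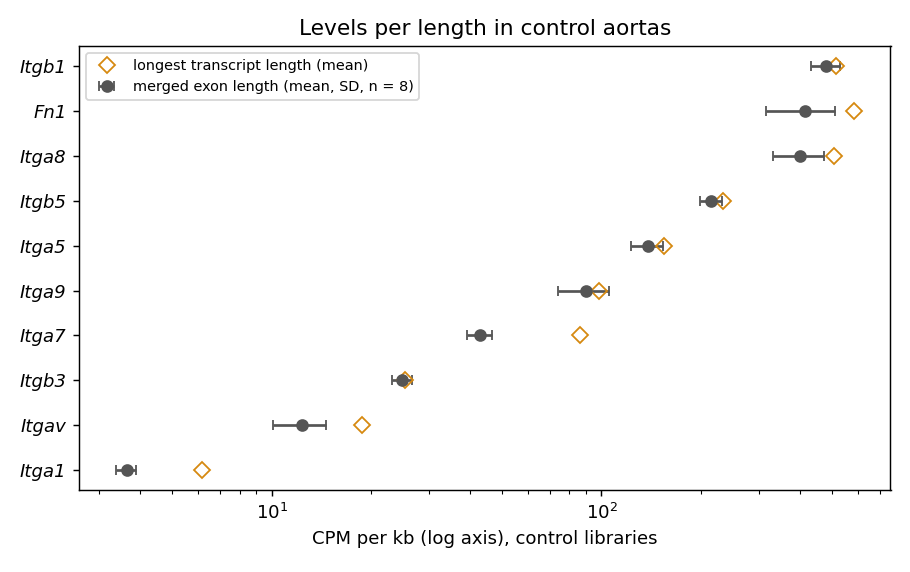
Levels of the 10 genes in the 8 control libraries, as CPM per kb on a log axis. Filled points are the mean over merged exons with the SD, open diamonds the mean over the longest transcript; Itgb1, Fn1 and Itga8 lie highest (401 to 479 CPM per kb of merged exons) and Itga1 lowest (3.64).

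Among the 6 alpha subunits, Itga8 made up most of the summed level per kb in every group, at 51.7 ± 4.11% with celecoxib, 61.7 ± 4.54% with rofecoxib and 58.0 ± 3.56% in control libraries (SD over 8 libraries). Itga5 made up 27.8 ± 4.64% with celecoxib, 18.4 ± 3.23% with rofecoxib and 20.4 ± 3.25% in controls. The Itga5 share was 19.9 to 35.0% in celecoxib libraries and 16.1 to 25.7% in controls, so the shares overlapped although the CPM did not. These shares contain the Itga5 values it was picked for and were not tested.

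Itga5 (ENSMUSG00000000555, mm9 chromosome 15 from 103174518 to 103197396) was lowest at 815, median 1049 and highest 1257 CPM in the 8 celecoxib libraries. In rofecoxib libraries the lowest, median and highest were 582, 774 and 922 CPM, and in control libraries 595, 657 and 808 CPM. The lowest celecoxib library thus lay above the highest control library. Against rofecoxib, 6 of 8 celecoxib libraries lay above the highest rofecoxib value. The rofecoxib libraries spread over both sides of the controls. Rofecoxib 1, 2 and 3 (922, 846 and 855 CPM) lay above the highest control, and rofecoxib 6, 7 and 8 (582, 582 and 587 CPM) below the lowest. Among celecoxib libraries, number 1 was lowest and number 8 highest. The libraries that differ thus also lie apart in the numbers of their titles, whose meaning no label gives, and the part of such an order in the spread and means of Itga5 and in the correlations given further on was not tested. The log2 fold change was 0.61 ± 0.10 (SE) for celecoxib against control and 0.49 ± 0.10 for celecoxib against rofecoxib, values that chose the gene or share its libraries and so carry no p. With 1 library left out in turn, the first ran from 0.57 to 0.65. Libraries differed in how counts followed the GC content of transcripts, and with a per-library offset for it Itga5 had log2 fold changes of 0.57 against control and 0.34 against rofecoxib. The drugs were given at 100 mg/kg/day (celecoxib) and 50 mg/kg/day (rofecoxib), so values set between them are not at matched doses.

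Rofecoxib did not give a called change of Itga5. The gene averaged 740.1 ± 138 CPM with rofecoxib and 682 ± 76.1 CPM in control libraries (SD, n = 8). The difference was 0.12 ± 0.10 on the log2 scale, with a 95% interval of -0.10 to 0.33 (edgeR adjusted p = 0.482). The control libraries of this comparison were part of the one Itga5 was picked in. The GC offset gave 0.24 (edgeR adjusted p = 0.205).

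**Figure D2:**
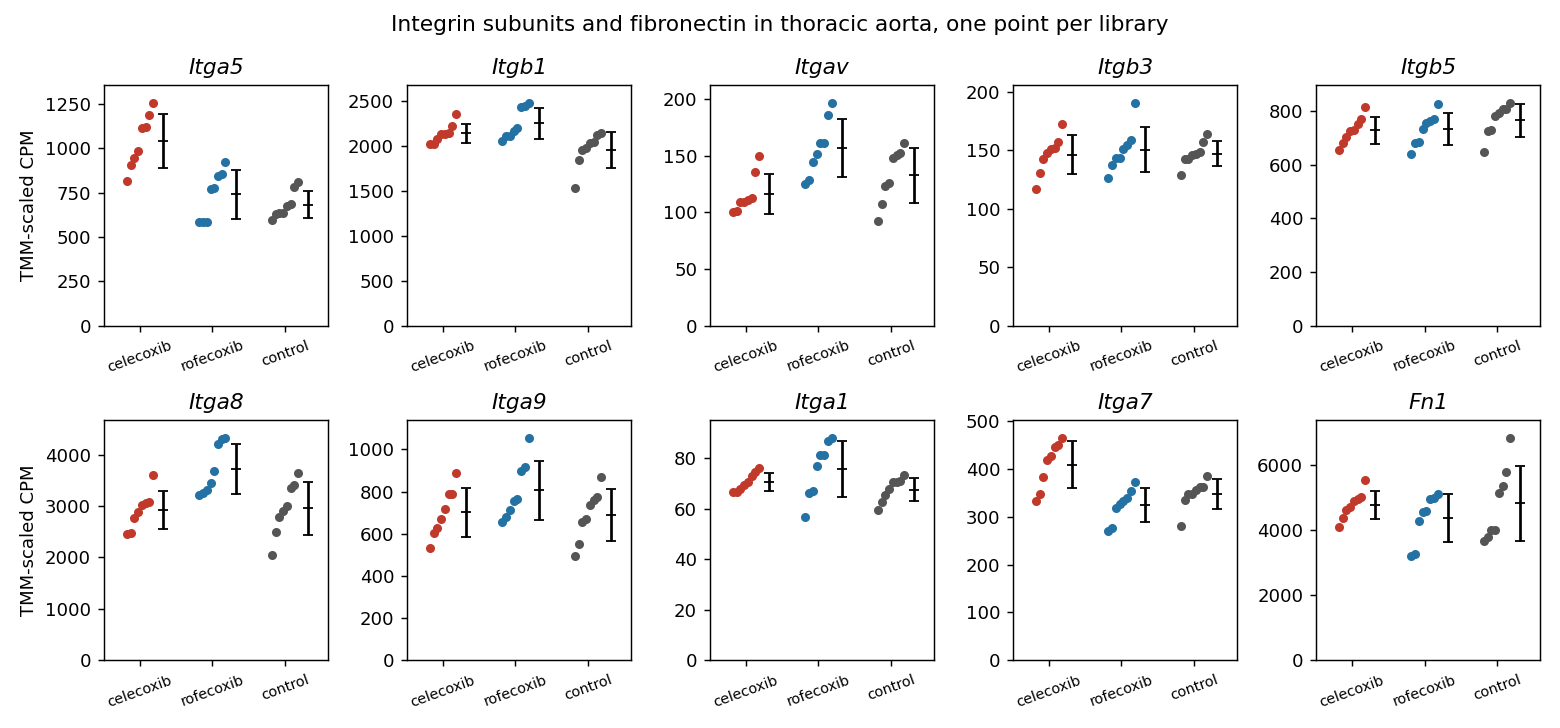
TMM-scaled CPM of the 10 genes by group, with 1 point per library drawn from low to high within a group; the black bar is mean and SD (n = 8). Itga5, picked for its rise with celecoxib, is the 1 gene of the 10 whose celecoxib points all lie above its control points (815 to 1257 against 595 to 808 CPM). Of all genes tested 0.194% do so. Itga8 and Itgav reach higher with rofecoxib than with celecoxib.

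The genes of the alpha5 subunit's partner and ligand were not called with celecoxib. In the comparison with control, 1.41% of all genes tested were called at an edgeR adjusted p under 0.05 (0.913% higher and 0.498% lower; 132 and 72 genes with TMM factors, 100 and 83 when scaled by library totals). Of the 9 genes other than Itga5 none was called, with 2 at an unadjusted p under 0.05 (Itga7 and Itgb1), and DESeq2 called 0 as well. Groups did not overlap for 0.298% of all genes and for 0 of these 9 genes. Their log2 fold changes ran from -0.19 to 0.24 with a median of -0.01, equal to the median of all genes tested at this rounding. Itgb1 averaged 2139 ± 110.3 CPM with celecoxib and 1954 ± 197 CPM in controls (0.13 ± 0.06 on the log2 scale, edgeR adjusted p = 0.252), with 3 of 8 celecoxib libraries above the highest control. Fn1 (mm9 chromosome 1 from 71631892 to 71699976) averaged 4786 ± 435 CPM with celecoxib and 4832 ± 1148 CPM in controls (-0.01 ± 0.12, edgeR adjusted p = 0.964, 95% interval -0.26 to 0.24). The Fn1 controls ran from 3664 to 6858 CPM and enclosed all celecoxib libraries, which ran from 4108 to 5551 CPM. The 95% interval gives the changes of Fn1 compatible with these values and is not a limit of detection.

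Itga7, the muscle laminin receptor subunit, had the smallest p of these 9 genes with celecoxib. Celecoxib libraries were lowest at 333, median 422 and highest 465 CPM, and control libraries 280.0, 351 and 386 CPM. Of 8 celecoxib libraries 5 lay above the highest control. The log2 fold change was 0.24 ± 0.08 and did not pass (edgeR adjusted p = 0.113). Skeletal muscle markers summed to 9.22 to 15.8 CPM with celecoxib and 7.06 to 11.6 CPM in controls, with 1 of 5 markers tested called higher, and their part in the Itga7 value was not tested. Smooth muscle markers had 2 of 10 called higher in the same comparison, with a median log2 fold change of 0.16; their part was not tested either.

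The vitronectin receptor genes and the remaining alpha subunits were not called with celecoxib. Itgav averaged 116 ± 17.4 CPM with celecoxib against 133 ± 24.4 CPM in controls (-0.19 ± 0.11, edgeR adjusted p = 0.393). Itgb3 averaged 146 ± 16.8 CPM with celecoxib and 147 ± 10.5 CPM in controls (-0.01 ± 0.07), and Itgb5 729 ± 50.3 and 764 ± 60.2 CPM (-0.07 ± 0.06). Platelet markers, whose cells also carry beta3, summed to 20.2 to 34.2 CPM with celecoxib, 15.9 to 41.9 CPM with rofecoxib and 23.6 to 96.5 CPM in controls. None of the 10 platelet markers was at 0 in all libraries, and their part in Itgb3 was not tested. Itga8 (-0.02 ± 0.10), Itga9 (0.03 ± 0.12) and Itga1 (0.06 ± 0.07) each had edgeR adjusted p-values over 0.05, at 0.939, 0.932 and 0.692.

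With rofecoxib, Itgb1 was called higher than in control aortas and the other 9 genes were not called. Over all genes 5.3% were called in this comparison, 2.43% higher and 2.87% lower, against which 1 of 10 genes is no clear excess. Itgb1 (ENSMUSG00000025809, mm9 chromosome 8 from 131209352 to 131257302) was lowest at 2056, median 2183 and highest 2480 CPM in rofecoxib libraries, against 1528, 2002 and 2139 CPM in controls. All 8 rofecoxib libraries exceeded the control mean and 5 exceeded the highest control. The log2 fold change was 0.20 ± 0.06 (edgeR adjusted p = 0.0461). Smooth muscle markers, whose cells carry beta1 and alpha8, had 2 of 10 called higher with rofecoxib and a median log2 fold change of 0.21, and their part in Itgb1 and Itga8 was not tested. This call stayed in 8 of 24 fits with 1 library left out (those without celecoxib 2 or 8, rofecoxib 4, 5 or 6, or control 1, 4 or 8), over which the adjusted p ran from 0.0341 to 0.0986. It was lost in 5 of 8 other settings. These were the GC offset (0.14, edgeR adjusted p = 0.213), leaving out control 6 and rofecoxib 2 together (0.17, edgeR adjusted p = 0.0892), no filter on low counts (edgeR adjusted p = 0.0872), only the 2 groups in the fit (edgeR adjusted p = 0.0794) and the replicate block (edgeR adjusted p = 0.0504).

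Itga8 just missed the threshold. The gene (ENSMUSG00000026768) lies on mm9 chromosome 2 from 12028057 to 12223749. Its rofecoxib libraries were lowest at 3210.0, median 3566 and highest 4330.3 CPM, and its controls 2050.3, 2955 and 3636 CPM. All 8 rofecoxib libraries lay above the control mean, with 4 above the highest control. The log2 fold change of 0.33 ± 0.10 had an edgeR adjusted p of 0.0547, and DESeq2 called it (adjusted p = 0.0252). Without control 4 it was 0.39 (edgeR adjusted p = 0.0312), and it also passed without control 1 (0.0442), rofecoxib 4 (0.0432) or rofecoxib 5 (0.043). The GC offset gave 0.25 (edgeR adjusted p = 0.134).

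Itgav averaged 157 ± 25.2 CPM with rofecoxib and 133 ± 24.4 CPM in controls (0.24 ± 0.11, edgeR adjusted p = 0.171), and Itga9 805 ± 139 and 689 ± 122 CPM (0.22 ± 0.12, edgeR adjusted p = 0.22). Itga1 averaged 75.6 ± 11.1 CPM with rofecoxib and 67.6 ± 4.73 CPM in controls (0.16 ± 0.07, edgeR adjusted p = 0.143), and without rofecoxib 6 it was called (0.20, edgeR adjusted p = 0.049). Itga7 (-0.10 ± 0.08), Itgb5 (-0.06 ± 0.06) and Itgb3 (0.03 ± 0.07) were not called. Fn1 averaged 4380 ± 746 CPM with rofecoxib and 4832 ± 1148 CPM in controls (-0.14 ± 0.12, edgeR adjusted p = 0.464, 95% interval -0.39 to 0.11). The median log2 fold change of the 10 genes was 0.14, against 0.00 over all genes.

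Between the drugs, Itga7 was called higher and Itgav and Itga8 lower with celecoxib than with rofecoxib, at unequal doses. In this comparison 22.7% of all genes were called, and of the 9 genes without Itga5 there were 3. Groups did not overlap for 1.67% of all genes (0.81% higher) and for none of these 9. Itga7 (mm9 chromosome 10 from 128370667 to 128395535) averaged 408 ± 48.9 CPM with celecoxib and 324 ± 35.2 CPM with rofecoxib (log2 fold change 0.33 ± 0.08, edgeR adjusted p = 0.00472, higher than the rofecoxib mean in 8 of 8). Itgav (mm9 chromosome 2 from 83564352 to 83647275) was lowest at 101, median 110.4 and highest 149.9 CPM with celecoxib, against 125, 156 and 197 CPM with rofecoxib (-0.43 ± 0.11, edgeR adjusted p = 0.0107). Of the celecoxib libraries 6 lay below the lowest rofecoxib library. Itga8 averaged 2916 ± 366 CPM with celecoxib and 3719 ± 489 CPM with rofecoxib (-0.35 ± 0.10, edgeR adjusted p = 0.0173), with 7 of 8 celecoxib libraries below the lowest rofecoxib library. All 3 calls held in each of 24 fits with 1 library left out. The other 6 genes were not called; their 95% intervals included Itgb1 at -0.20 to 0.05, Itgb5 at -0.12 to 0.11 and Fn1 at -0.12 to 0.38.

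**Figure D3:**
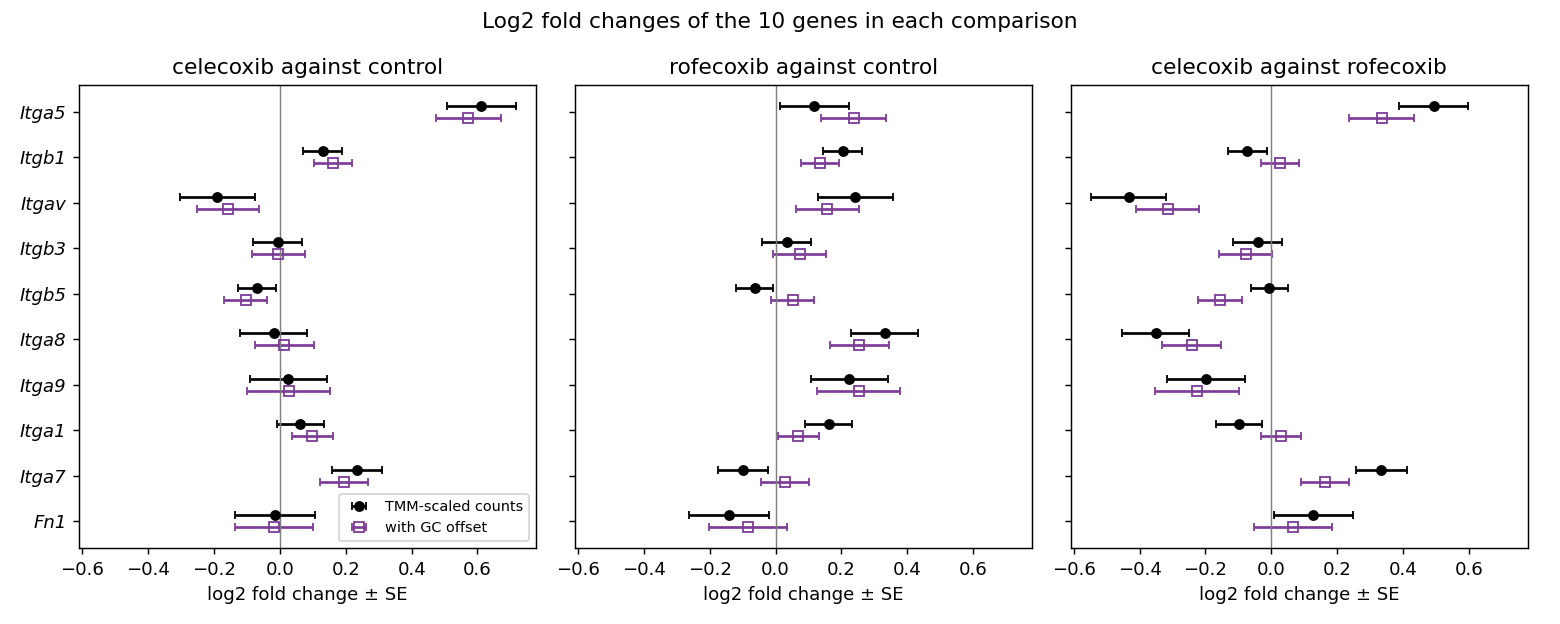
Log2 fold changes ± SE of the 10 genes in the 3 comparisons, from TMM-scaled counts (filled) and with a per-library offset for transcript GC content (open). Between the drugs Itga7 (0.33) and Itgav (-0.43) lie furthest apart among the 9 genes other than Itga5, and the offset moves Itga7 to 0.16 and Itgav to -0.31.

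Transcript GC content differed between the 10 genes, and their rofecoxib differences are set beside it here. Itga1 (42.8%), Itgav (43.5%), Itga8 (44.0%) and Itgb1 (44.8%) were the lowest in GC and had log2 fold changes of 0.16 to 0.33 for rofecoxib against control. Itgb5 (57.0%), Itga5 (57.3%) and Itga7 (57.8%) were the highest, at -0.06, 0.12 and -0.10 in the same comparison. Of those between, Itga9 (51.6%) was at 0.22, above Itga1 and Itgb1, Itgb3 (52.1%) at 0.03, and Fn1 (53.5%) at -0.14, below the 3 genes of highest GC. The part of GC content in these values was not tested beyond the offset. The slope of log2 CPM on GC fraction, relative to the control mean, was 0.46 ± 0.90 in celecoxib and -1.40 ± 0.96 in rofecoxib libraries, with an SD of 0.83 among controls (n = 8 each). With the offset for GC content, Itgav remained called between the drugs (-0.31, edgeR adjusted p = 0.0416), while Itga8 (-0.24, edgeR adjusted p = 0.0897) and Itga7 (0.16, edgeR adjusted p = 0.157) were not. The 3 genes kept their direction there.

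Some of the genes varied together from library to library. With each group's mean subtracted, Pearson's r over the 24 libraries was 0.88 for Itgav with Itga8, 0.82 for Itgb1 with Itga8 and 0.72 for Itgb1 with Itga1. Computed in each group alone, r was 0.79, 0.81 and 0.96 for Itgav with Itga8 in celecoxib, rofecoxib and control libraries, 0.61, 0.95 and 0.84 for Itgb1 with Itga8, and 0.73, 0.81 and 0.87 for Itgb1 with Itga1. Without the GC offset, Itga5 varied most like Itga7 among these genes (0.63), then Itgb5 (0.51). The first of these was 0.83 in celecoxib and 0.88 in rofecoxib libraries but -0.21 in controls, and the second 0.68, 0.47 and 0.45. The lowest r were those of Itgav with Itga7 (-0.58) and with Itga5 (-0.47). In celecoxib, rofecoxib and control libraries they were -0.91, -0.56 and -0.35 with Itga7, and -0.80, -0.67 and 0.07 with Itga5, so the negative value with Itga5 was not seen in controls. Fn1 was at most 0.26 with any of the other 9, and lowest with Itgav (-0.33). In rofecoxib libraries alone Fn1 was at -0.86 with Itgav, -0.83 with Itgb1 and -0.80 with Itga8. With the same genes it was at 0.20, 0.32 and 0.20 in celecoxib libraries. In controls it was at -0.15, 0.23 and -0.04. These are descriptions over 45 pairs measured in the same libraries, which also differ in cell mix and in how counts follow GC content. Control 6, highest in white fat markers, was the lowest control for Itga5, Itgb1, Itgav, Itgb5, Itga8, Itga9 and Itga1. Over all genes tested it had the lowest median r with its own group of the 24 libraries. That value was 0.970, against 0.987 or more for the other controls. Except for Itga5 with Itgb1 (last section), the r of these pairs are not given without control 6, and its part in them was not tested. With the GC offset r was 0.83 for Itgav with Itga8, 0.73 for Itgb1 with Itga8 and 0.57 for Itga5 with Itga7, the negative r shrank to -0.16 for Itgav with Itga7, and the median over the pairs was 0.44 against 0.21 without it. The order for Itga5 changed with the offset. Its highest r was then with Itga1 (0.68, against 0.17 without the offset), followed by Itga7, Itgb1 (0.47) and Itgb5 (0.46).

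**Figure D4:**
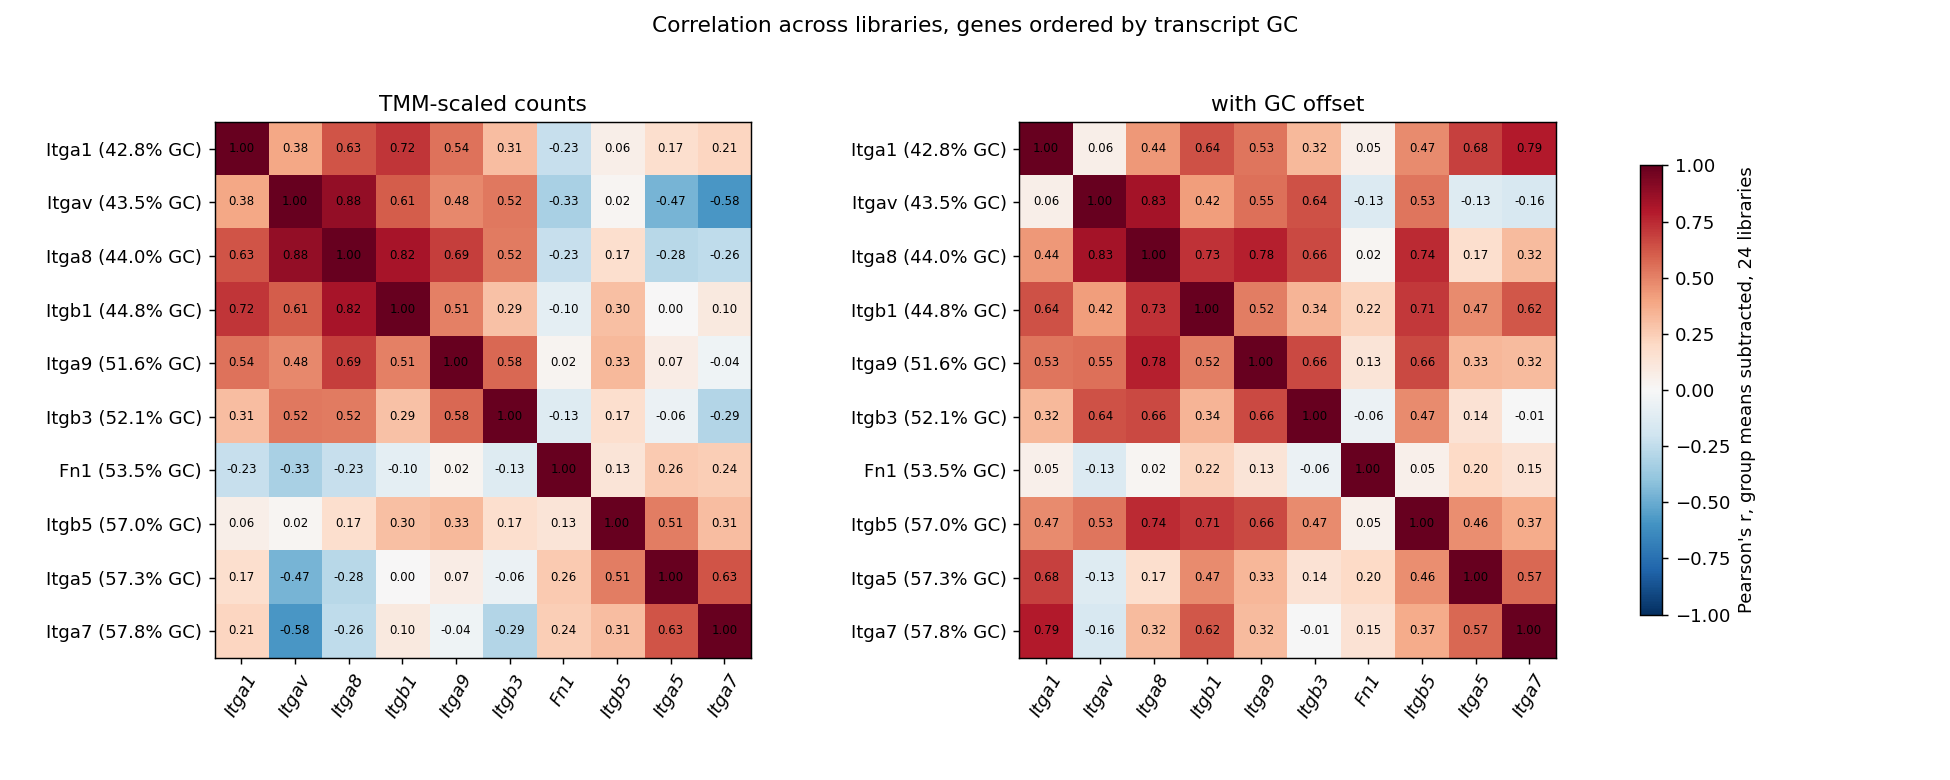
Pearson's r between the 10 genes over 24 libraries after subtracting each group's mean, ordered by transcript GC content, from TMM-scaled counts (left) and with the GC offset (right). Itgav with Itga8 is high on both sides (0.88 and 0.83), and the negative values of Itgav with Itga5 and Itga7 are nearer 0 on the right.

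The relation of Itga5 to its partner and to its ligand was tested with the group means taken out. Itga5 with Itgb1 gave Pearson's r of 0.0024 and Spearman's rho of -0.0035 over 24 libraries (permutation p = 0.991 and 0.989, within groups and two-sided; adjusted over the 2 relations, p = 0.991 and 0.989). Without the 2 libraries farthest from the median of Itga5 r was -0.12. Within celecoxib, rofecoxib and control libraries r was 0.04, -0.16 and 0.18. The GC offset gave r of 0.47 (permutation adjusted p = 0.0315) and rho of 0.37, which did not pass (permutation p = 0.0805 before adjustment). Itga5 with Fn1 gave r of 0.26 and rho of 0.17 (permutation p = 0.226 and 0.437, adjusted p = 0.452 and 0.874). Without the 2 farthest libraries r was 0.26, and within celecoxib, rofecoxib and control libraries it was -0.35, 0.64 and 0.14.

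Over all 14450 other genes, the 5 most like Itga5 by the same measure over 24 libraries were Med15, a Mediator subunit (r = 0.86), Dlgap4 (0.84), the Golgi stacking protein gene Gorasp2 (0.82), the small GTPase gene Ralb (0.82) and Flnc, the muscle filamin that crosslinks actin (0.82). Flnc averaged 458 CPM with celecoxib, 390.1 with rofecoxib and 394 in controls. After the GC offset these r were 0.68 to 0.83. The 3 least alike were Gm14410 (-0.75), Zfp931 (-0.74) and Rfwd3, a ubiquitin ligase gene (-0.73), at -0.67, -0.66 and -0.47 after the GC offset. Within controls these r were -0.76 for Gm14410, -0.0011 for Zfp931 and 0.15 for Rfwd3, so the last 2 showed no negative r there, while the 5 most alike ran from 0.54 to 0.91 in controls. No member was among the 5, and without the GC offset Itga7 ranked highest of the members at 299.

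Other genes of integrin adhesion were taken from lists of subunits, ligands, linkers, signalling proteins and fibronectin assembly factors. With celecoxib, 2 of 29 linkers between integrins and actin rose and none fell, where 0.913% of all genes were called higher. Csrp1, a LIM protein of smooth muscle, averaged 2601 ± 306 CPM with celecoxib and 2033 ± 149 CPM in controls (0.36 ± 0.07, edgeR adjusted p = 0.0151), and was called in all 24 fits with 1 library left out. Actn4, an alpha-actinin, averaged 1782 ± 120 and 1485 ± 123 CPM (0.26 ± 0.06, edgeR adjusted p = 0.0374). Its call was lost in 11 of 24 such fits and in 4 of 8 other settings (edgeR adjusted p of 0.0528 with the GC offset, 0.0676 with no filter, 0.0538 with the replicate block and 0.0542 without control 6 and rofecoxib 2). The median log2 fold change of the 29 linkers was 0.14. That of the 10 smooth muscle markers was 0.16 in the same comparison, with 2 called higher, and their part in the linker values was not tested. By edgeR none was called of 14 other integrin subunits, 30 other ligands, 26 signalling genes and 20 assembly genes, with 3, 2, 6 and 3 at an unadjusted p under 0.05. DESeq2 called 2, 0, 0 and 1 of them, where it called more of all genes than edgeR did (counts in the last section). Of the 29 linkers 13 were at an unadjusted p under 0.05. The share of all genes at that p is not given here, so no excess can be read from these counts.

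With rofecoxib, 2.43% of all genes were called higher and 2.87% lower than in controls. Against these shares the few calls per list given here are no clear excess. Of 30 other ligands 2 fell and none rose. Both were chains of type I collagen, Col1a1 (-0.65 ± 0.13, edgeR adjusted p = 0.0119) and Col1a2 (-0.35 ± 0.09, edgeR adjusted p = 0.036). Of 20 genes of fibronectin assembly 2 fell, Fbln1, a matrix protein that binds fibronectin, at 154 ± 37.5 CPM against 229 ± 33.3 CPM in controls (-0.57 ± 0.13, edgeR adjusted p = 0.0212), and the procollagen proteinase gene Bmp1 (-0.22 ± 0.06, edgeR adjusted p = 0.04). Fibroblast markers summed to 5175 to 8032 CPM with rofecoxib and 7131 to 10197 CPM in controls, with 2 of 10 called lower. Col1a1 is itself on that marker list. Without it the other 9 markers summed to 3635 to 6454 CPM with rofecoxib and 5353 to 7668 CPM in controls, with 1 called lower (Clec3b) and a median log2 fold change of -0.20. Their part in the collagen and assembly values was not tested. Among linkers Csrp1 (0.24 ± 0.07) and Lpp (0.26 ± 0.08) rose and Fermt3, the kindlin of blood cells, fell (-0.76 ± 0.19, edgeR adjusted p = 0.0286). Macrophage markers summed to 132 to 280.4 CPM with rofecoxib and 241 to 399 CPM in controls, with 2 of 10 called lower. Their median log2 fold change was -0.49. Platelet markers summed to 15.9 to 41.9 CPM with rofecoxib and 23.6 to 96.5 CPM in controls. Of 9 platelet markers tested 0 were called, at a median log2 fold change of -0.88. The part of either cell type in Fermt3 was not tested. Of 26 signalling genes Crk, an adaptor (0.15 ± 0.04), and Rap1a, a GTPase that activates integrins (0.23 ± 0.06), rose. Of 14 other subunits none was called by edgeR, 6 were at an unadjusted p under 0.05, and DESeq2 called 3. DESeq2 also called more of all genes than edgeR here (counts in the last section). The share of all genes at an unadjusted p under 0.05 is not given, so no excess can be read from these counts. With the GC offset, of the genes named in this paragraph only Csrp1 was called (0.32, edgeR adjusted p = 0.0304). Of the 24 fits that each omit a library, 7 lost the call for Col1a2, 2 for Fbln1, 2 for Fermt3, 11 for Bmp1, 12 for Csrp1, 20 for Lpp, 16 for Crk and 10 for Rap1a.

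Between the drugs, where 11.5% of all genes were called higher and 11.2% lower with celecoxib, 8 of 29 linkers were higher and none lower. They included Sorbs3, which encodes vinexin (0.46 ± 0.08, edgeR adjusted p = 0.00151), Tenc1, a tensin (0.37 ± 0.07), Lims2, a partner of integrin-linked kinase (0.35 ± 0.08), and Zyx, which encodes zyxin (0.33 ± 0.08). Of 30 other ligands 8 were higher and 1 lower. The laminin chain Lama5 (0.45 ± 0.09), Col1a1 (0.60 ± 0.13) and Tgfb1 (0.32 ± 0.08) were higher, and Cyr61, a matricellular ligand, was lower at 345 ± 129 CPM with celecoxib and 757 ± 226 CPM with rofecoxib (-1.14 ± 0.26, edgeR adjusted p = 0.00568). Of 20 assembly genes 5 were higher, Fbln1, Bmp1, Tgm2 and the perlecan gene Hspg2 among them, and 1 lower. Fibroblast markers other than Col1a1 summed to 5725 to 7791 CPM with celecoxib and 3635 to 6454 CPM with rofecoxib, with 2 of 9 called higher (Pi16 and Gsn) and a median log2 fold change of 0.26, and their part in the ligand and assembly values was not tested. Of 26 signalling genes 6 were higher, Git1, Bcar1 and Fyn among them, and 4 lower, among them Cav1 of caveolae (-0.20 ± 0.05). Of 14 other subunits Itga3, a laminin receptor subunit, was higher (0.38 ± 0.08, edgeR adjusted p = 0.00417) and Itgb8 lower (-0.66 ± 0.21, edgeR adjusted p = 0.0264). Itgb8 lost its call without celecoxib 4, 6 or 8 or rofecoxib 8 (4 of 24 fits, edgeR adjusted p up to 0.0574), with no filter (0.0511) and with the GC offset (0.0843). The other genes named in this paragraph, the fibroblast markers Pi16 and Gsn aside, were called in all 24 of these fits. With the GC offset the counts of genes called were 1 linker, 4 ligands, 3 assembly genes, 3 signalling genes and 0 subunits, and Cyr61 was at -1.19 (edgeR adjusted p = 0.0117). Fewer of all genes were called with the offset too (counts in the last section). The shares of 11.5% and 11.2% thus do not apply to these counts, and no excess is read from them.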

How the data were processed

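The deposited table holds whole-number counts per gene, which the authors made, per the submitters' processing notes, with CASAVA 1.8.2 and STAR 2.5.1b on the mm9 build. The sources used here name no counting tool or strand setting, nor the step that brought library totals within 0.164% of each other. How such near-equal totals affect the spread between libraries was not tested. Reads of overlapping or antisense genes cannot be told apart. No sample column was left unmapped.

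Counts were filtered with filterByExpr, scaled with TMM factors (0.959 to 1.03) and tested with edgeR 4.0.16 in R 4.3.3. A robust quasi-likelihood model with 1 mean per group was fitted to all 24 libraries, with Benjamini-Hochberg adjustment over 14451 genes and calls at an adjusted p under 0.05. The SE is the log2 fold change over the root of F. Log2 CPM used a prior count of 2, and correlations 100000 permutations within groups. The GC offset is a smooth curve per library on the GC content of the longest GENCODE M21 transcript, known for 97.4% of genes tested. Alternatives used DESeq2 1.42.0, other scalings, no filter, fewer libraries and a replicate block. The fits were tested on simulated data.

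The members, lists and rules were chosen with earlier results of these data known. All members are named, up to 4 called genes per list and comparison by smallest p, and the 5 genes most and 3 least like Itga5. The fibroblast markers Clec3b, Pi16 and Gsn were named, and r within groups, the GC offset on correlations and marker lists without shared genes were added, after the values were seen.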

Additional observations from a re-analysis of the deposited data

Results flagged for a closer look

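Itga7 in control 2 was at 280.0 CPM, apart from the other 7 controls, which began at 336 and reached 386 CPM. Its gap to the nearest library, as a share of the group's range, only just passed Dixon's limit. Of the 30 sets of 8 libraries looked at in this way (10 genes in 3 groups) this was the 1 that stood apart, and chance alone gives about 1 in 20. Without this library, the Itga7 log2 fold change was 0.20 for celecoxib against control (edgeR adjusted p = 0.215).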

How the results depend on the processing

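For rofecoxib against control, 0 members were called with no filter, with the replicate block, with the GC offset, with only the 2 groups, and without control 6 and rofecoxib 2, against 1 otherwise, and DESeq2 called 2. Over all genes this comparison gave 294 with no filter, 1575 with DESeq2, 147 with the GC offset, 461 with only the 2 groups and 215 without those 2 libraries, against 766. Celecoxib against control gave 86 with no filter, 481 with DESeq2 and 88 with only the 2 groups, against 204. Between the drugs the GC offset gave 1185 of all genes, against 3275, and 1 member, against 3. The r of Itga5 with Itgb1 was 0.47 with the GC offset, -0.17 with library totals, -0.12 without the 2 farthest libraries and -0.16 without control 6 and rofecoxib 2. The cause of these shifts was not tested.

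Signs turned for uncalled values near 0. The GC offset gave Itga8 0.0131 (celecoxib against control), Itgb5 0.0518 and Itga7 0.0296 (rofecoxib against control), and Itgb1 0.0265 and Itga1 0.0289 between the drugs. The block gave Fn1 0.0014 with celecoxib, and leaving out control 6 and rofecoxib 2 gave Itga9 -0.0330 with celecoxib. With 1 library left out, celecoxib against control ran from -0.0454 to 0.0336 for Itgb3, -0.0831 to 0.0295 for Itga8, -0.0330 to 0.0811 for Itga9 and -0.0627 to 0.0744 for Fn1. Rofecoxib against control ran from -0.0350 to 0.0723 for Itgb3, and celecoxib against rofecoxib from -0.0838 to 0.0193 for Itgb3 and -0.0375 to 0.0236 for Itgb5.

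Leaving out 1 library gave 42 to 312 genes called for celecoxib against control, 170 to 1121 for rofecoxib against control and 2147 to 3739 between the drugs, with 0 to 0, 0 to 2 and 3 to 3 members. Counts moved by over 1.5 times, for celecoxib against control, without celecoxib 2 (312), 3 (93), 4 (57), 5 (42), 7 (135) or 8 (73), without rofecoxib 3 (135), and without control 1 (96), 2 (64), 3 (68), 4 (116), 7 (109) or 8 (113). For rofecoxib against control they did so without rofecoxib 1 (479), 2 (401), 7 (199) or 8 (179), and without control 5 (178), 6 (335), 7 (170) or 8 (435), and between the drugs without rofecoxib 8 (2147). The r between same-numbered libraries was over 0.1 in 5 of 8 pairs of celecoxib and control (-0.29 to 0.44). It was over 0.1 in 2 of 8 of rofecoxib and control (-0.17 to 0.27) and 2 of 8 of celecoxib and rofecoxib (-0.22 to 0.23). No r of differently numbered libraries is given beside these, so whether the numbers pair libraries cannot be told. The replicate block called 187, 653 and 3193 genes.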
